A study of Mus musculus with 8 samples.

Results

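The retinoid X receptors, RXRα, RXRβ and RXRγ, are the nuclear receptors that HX630 binds, and the signals of their genes were examined in AtT20 cells incubated with or without this agonist. AtT20 is a mouse line of pituitary corticotroph tumor cells. The members were chosen by name, as every probe whose RefSeq accession belongs to Rxra, Rxrb or Rxrg. They are 3 of the 19751 genes named on the array, with 5 of its 39429 probes, namely 2 for Rxra, 1 for Rxrb and 2 for Rxrg. The RNA of 4 control samples, kept without HX630, and of 4 samples given the agonist (10 μM, 48 hr) was labeled with Cy3 and read on 8 one-color arrays, 1 per sample. Both groups stood in medium with stripped serum. Per the study's methods the agonist was dissolved in DMSO and the final level of DMSO was held constant, while the labels describe the controls only as cells without the agonist. The labels do not say whether the 4 samples of a group came from separate cultures. The p-values therefore measure the spread between these samples, which may be technical. All results describe 1 established tumor line at 1 dose and 1 time.

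RXRs act as ligand-activated transcription factors. They bind DNA as homodimers or as the common partner of many other nuclear receptors. In permissive heterodimers, such as those with PPAR, LXR or the NR4A receptors NUR77 and NURR1, an RXR ligand alone can activate transcription. In non-permissive heterodimers, such as those with the retinoic acid receptors (RAR), the vitamin D receptor or the thyroid hormone receptors, the partner's ligand controls the response. RXRα and RXRβ are found in most tissues, while RXRγ is known mainly from muscle, brain and pituitary.

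The DNA sequence that RXR dimers read is built from the half-site AGGTCA, and the promoters of the receptors' own genes are shown for that reason. RefSeq (GRCm38.p6) promoter windows were at hand for 2 start sites of each gene, and the 250 bases before each were searched for the half-site on both strands. Other start sites of these genes were not searched here. It was found in 2 of these 6 windows, against 14.0% of the 32851 windows of all genes. The window of Rxra at chr2:27709042-27709291 (plus strand) holds 2 half-sites, which begin 87 bases before the start on the minus strand and 48 bases before it on the plus strand. That of Rxrg at chr1:167618015-167618264 (plus strand) holds 1, which begins 88 bases before the start on the plus strand. The window of Rxrb at chr17:34031562-34031811 (plus strand) holds none and is shown for comparison. Capitals mark the half-sites.
Rxra: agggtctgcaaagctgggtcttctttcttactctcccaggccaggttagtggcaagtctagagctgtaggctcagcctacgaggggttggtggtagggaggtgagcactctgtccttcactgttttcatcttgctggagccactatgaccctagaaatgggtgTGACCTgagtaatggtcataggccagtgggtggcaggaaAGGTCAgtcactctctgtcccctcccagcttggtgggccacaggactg
Rxrg: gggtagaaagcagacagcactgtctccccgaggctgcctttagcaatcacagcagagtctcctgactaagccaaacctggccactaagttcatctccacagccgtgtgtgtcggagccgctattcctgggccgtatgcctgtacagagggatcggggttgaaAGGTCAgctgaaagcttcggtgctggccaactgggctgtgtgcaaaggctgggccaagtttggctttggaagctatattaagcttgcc
Rxrb: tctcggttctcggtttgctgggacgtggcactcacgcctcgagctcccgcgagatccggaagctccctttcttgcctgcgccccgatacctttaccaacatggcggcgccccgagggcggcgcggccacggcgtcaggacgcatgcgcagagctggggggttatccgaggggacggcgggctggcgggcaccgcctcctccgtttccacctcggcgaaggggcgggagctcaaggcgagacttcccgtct
The windows also differ in base composition. G and C make up 81.2% and 55.2% of the first and second window of Rxra, 69.2% and 82.4% of those of Rxrb, and 49.2% and 55.2% of those of Rxrg, and the median over all windows is 52.4%. Paired half-sites spaced by 1 or by 5 bases (AGGTCANAGGTCA and AGGTCANNNNNAGGTCA) were not found in the 6 windows. They occur in 0.0335% and 0.00913% of all windows. A match of letters is no evidence of binding, and binding was not measured on these arrays.

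Signals are given on the log2 scale relative to the 75th percentile of the array, so that 0 stands for that percentile and a difference of 1 for a doubling. Probes whose spots stood well above background in 4 or more samples were tested with limma, 28553 in all, and the 5 RXR probes were among them. It was called when its p-value, adjusted by the Benjamini-Hochberg method over all probes tested, was below 0.01 and its fold change above 1.5, a log2 difference of 0.585. Under this rule 3180 of all probes (11.1%) were lower and 2133 (7.47%) were higher with HX630. That split depends on the scaling, and was 2656 lower and 2830 higher with the median, 2731 and 2712 with quantile normalization, and 1888 and 4179 with spike-in controls in place of the 75th percentile. The slides did not mix the groups, with the controls on 1 slide and the HX630 samples on another, so treatment cannot be told apart from slide or scan in any result. Of the probes on an array, 69.7% to 73.5% were well above background, and arrays correlated at 0.994 to 0.998 within and 0.978 to 0.984 between groups. The corticotroph markers Pomc, Tbx19, Pitx1, Neurod1, Pcsk1, Crhr1 and Chga were well above background on all 8 arrays and Avpr1b on none. Of the 8 markers of other pituitary cells, Gh, Lhb and Nr5a1 were well above background on all 8 arrays, Pou1f1 on 7, Fshb on 3, and Prl, Tshb and Cga on none. Gh was called lower with HX630 (log2 -0.79, SE 0.116, adjusted p = 0.000605 in limma). Lhb (0.23), Pou1f1 (0.26) and Nr5a1 (-0.30) were not called. Of the 4 markers of fibroblasts or blood cells, Col3a1, Ptprc and Pecam1 were well above background on all 8 arrays. Col1a1 was so in 2 control and 4 HX630 samples. Pecam1 was called lower (-0.59, adjusted p = 4.97e-05 in limma), while Ptprc (-0.45), Col3a1 (-0.31) and Col1a1 (0.22) were not called. The part of such markers in the results was not tested.

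Of the 5 RXR probes, 1 was called lower with HX630, a probe of Rxra, and 0 were called higher. With limma at an unadjusted p under 0.05, and with the methods' t-test at its threshold, the number higher was 0 as well. The groups did not overlap for 2 of the 5, the called probe of Rxra and the probe of Rxrb, against 55.7% of all probes tested. The same 2 passed the adjusted p without the fold change, against 45.5% of all probes.

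RXRβ is the most broadly expressed of the receptors. The Rxrb probe A_55_P2008609 had signals of 3.84, 3.83, 3.87 and 3.82 in the control samples and of 3.53, 3.54, 3.50 and 3.49 with HX630. Every HX630 sample was below every control sample, and the spread within each group was small (SD 0.022 and 0.024, n = 4). The log2 fold change was -0.33 (SE 0.031, 95% CI -0.40 to -0.26), with an adjusted p of 5.16e-05 in limma and an exact permutation p of 0.0286, the smallest that 70 regroupings of the 8 arrays allow. The signal with HX630 was 79.7% of control (95% CI 75.9 to 83.7), a change that passed the test of the p-value and was under the fold change threshold. Before scaling, the processed intensities overlapped, from 19176 to 27277 in control and from 20673 to 21378 with HX630. The size of the Rxrb change therefore rests on the scaling between arrays. The median log2 fold change over all tested probes was -0.056 with the 75th percentile and 0.17 with spike-in controls, a shift of 0.22, and that of Rxrb was -0.11 with spike-in controls (adjusted p = 0.0841). Each of these scalings moves all probes of an array alike, and Rxrb lay 0.27 below the median of all tested probes. By quantitative real-time PCR, the study reports no effect of HX630 at the same dose on RXRβ mRNA. The cause of the difference from the array was not tested.

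**Figure D1:**
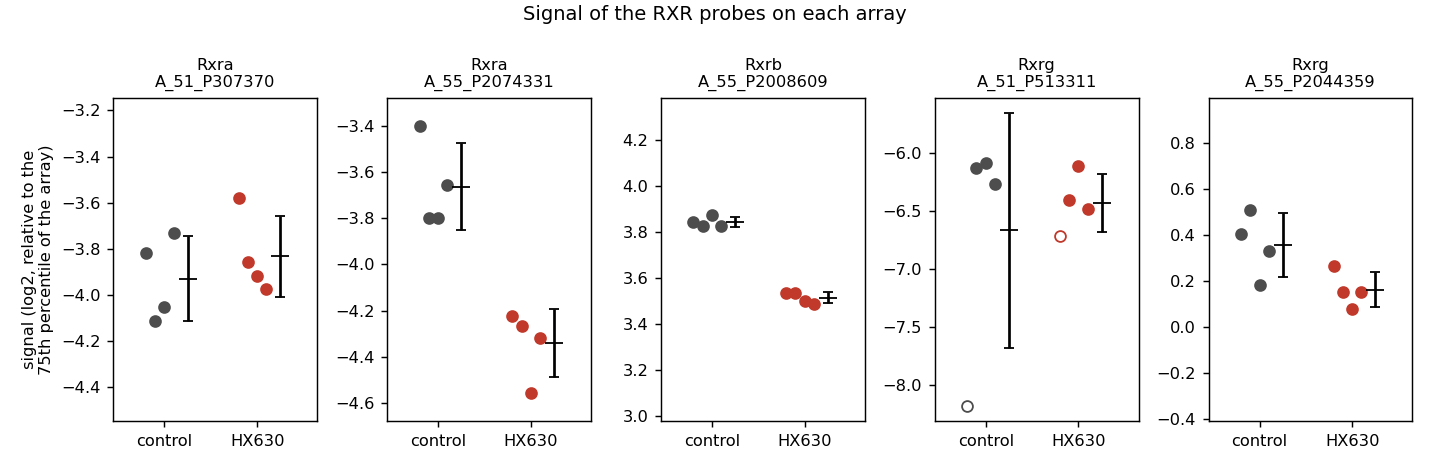
Signal of each RXR probe (log2, relative to the 75th percentile of the array) in the 4 control (grey) and the 4 HX630 (red) samples, with the mean ± SD beside them. Open points were not well above background, and the vertical axes differ between probes. The groups are apart for Rxra A_55_P2074331 (control -3.80 to -3.40, HX630 -4.56 to -4.22) and for Rxrb (control 3.82 to 3.87, HX630 3.49 to 3.54), and they overlap for the other 3 probes.

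RXRα is the main RXR of liver and skin. Both probes of Rxra carry the same RefSeq accession and were well above background on all 8 arrays, and they behaved differently. The first, A_51_P307370, had signals of -3.82, -4.11, -4.05 and -3.73 in control and of -3.58, -3.86, -3.92 and -3.97 with HX630. The groups overlapped, and the log2 fold change of 0.10 (SE 0.115, 95% CI -0.17 to 0.36) did not pass the test (adjusted p = 0.503 in limma, exact permutation p = 0.486). The second, A_55_P2074331, had signals of -3.40, -3.80, -3.80 and -3.66 in control and of -4.22, -4.27, -4.56 and -4.32 with HX630. Every HX630 sample was below every control sample. The log2 fold change was -0.68 (SE 0.110, 95% CI -0.93 to -0.42, adjusted p = 0.00107 in limma, exact permutation p = 0.0286), or 62.5% of control (95% CI 52.4 to 74.6). With spike-in controls it was -0.46 (adjusted p = 0.00705), under the fold change threshold, so that the call ended.

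The unequal change of the 2 Rxra probes was also seen within each array, where no scaling between arrays enters. The first minus the second probe was -0.42, -0.32, -0.26 and -0.075 in control, and 0.64, 0.41, 0.64 and 0.34 with HX630. The sign was negative in all 4 control samples and positive in all 4 HX630 samples, a change of 0.77 (exact permutation p = 0.0286, or 0.0714 adjusted over the 10 pairs of RXR probes). This comparison was added after the data were seen. Differences of this size between probes of 1 gene occurred elsewhere on the array. Of the 3293 genes with 2 tested probes, 230 (6.98%) had fold changes at least as far apart, and 455 (13.8%) had 1 probe called and the other not. Among the 145 such genes with both probes as dim as those of Rxra, 17 (11.7%) were at least as far apart, and the median over all 3293 was 0.16. Both Rxra probes were dim, with processed intensities from 77.7 to 151, which is 5.34 to 12.0 times the lowest signal that was well above background on the same array. The stretch of Rxra that each probe reads is not given in the files used here, so the arrays do not settle whether Rxra mRNA was lower or unaltered with HX630. By quantitative real-time PCR, the study reports no effect of HX630 at the same dose on RXRα mRNA in these cells.

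**Figure D2:**
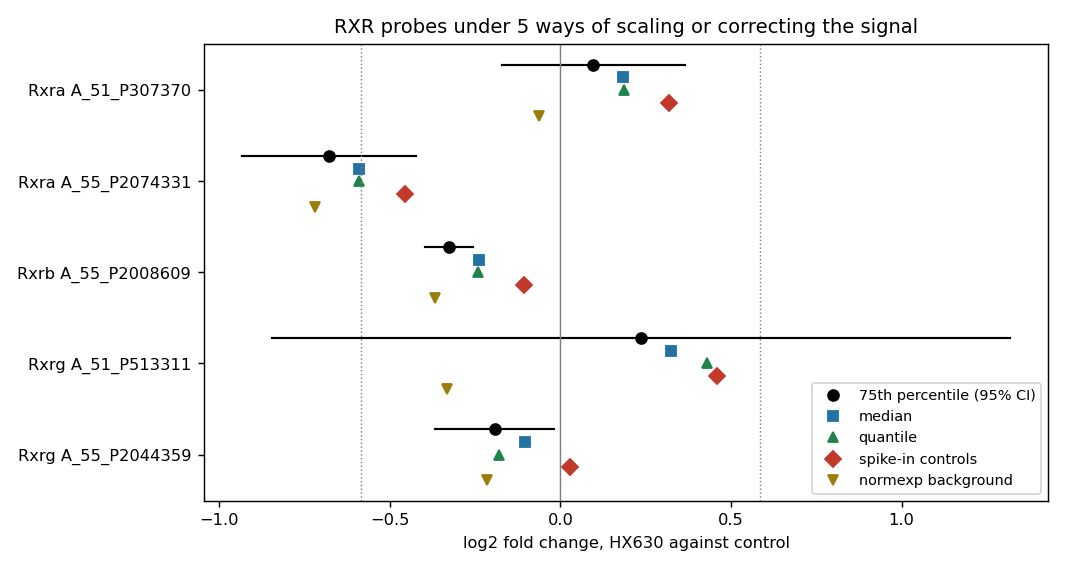
Log2 fold change (HX630 against control) of each RXR probe with 4 ways of scaling (75th percentile, median, quantile, spike-in controls) and with normexp background correction. Bars are 95% CI of the fit with the 75th percentile and dotted lines mark the fold change threshold. Rxra A_55_P2074331 and Rxrb lie below 0 in all 5, while the other 3 probes lie on both sides of 0.

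RXRγ is encoded by Rxrg, the receptor gene with the most restricted expression. Its probe A_55_P2044359 had signals of 0.40, 0.51, 0.18 and 0.33 in control and of 0.27, 0.15, 0.078 and 0.15 with HX630, and was well above background on all 8 arrays. The groups overlapped through control sample 3 and HX630 sample 1. The log2 fold change was -0.19 (SE 0.075, 95% CI -0.37 to -0.018), which did not pass the test (adjusted p = 0.0576 in limma, exact permutation p = 0.0571). With spike-in controls the value was 0.03, on the other side of 0. The study reports that RXRγ mRNA was not detected in these cells by quantitative real-time PCR. Why this probe was nevertheless well above background was not tested.

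The other Rxrg probe, A_51_P513311, lay near background. Its processed intensities were 4.59, 19.4, 27.5 and 21.9 in control and 17.1, 21.7, 26.4 and 21.3 with HX630, where the lowest signals well above background were 11.1 to 18.1. It was well above background in 3 of the 4 samples of each group, and control sample 1 and HX630 sample 1 were the exceptions. The log2 fold change of 0.24 (SE 0.465, 95% CI -0.84 to 1.32, adjusted p = 0.686 in limma) turned to -0.27 (adjusted p = 0.131) without control sample 1. This probe gives no direction for Rxrg, and its wide interval leaves room for a change in either direction.

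To ask whether the 3 genes changed unequally, the brightest tested probe of each was compared within arrays, in 3 pairs. Rxra (A_51_P307370) moved up relative to Rxrb by 0.42 (exact permutation p = 0.0286, or 0.0857 adjusted over the 3 pairs) and relative to Rxrg (A_55_P2044359) by 0.29 (exact permutation p = 0.0571, adjusted 0.0857). Rxrb moved relative to Rxrg by -0.13 (exact permutation p = 0.143). None of the 3 passed the threshold of 0.05 after adjustment. With the other Rxra probe the first 2 turned, to -0.35 and -0.49 (exact permutation p = 0.0286 for each, or 0.0714 adjusted over the 10 pairs of RXR probes). The relation of Rxra to the other receptors thus depends on its probe. Apart from the choice of the brightest probe, levels of different probes were not set against each other, since the brightness of a spot also depends on the probe.

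**Figure D3:**
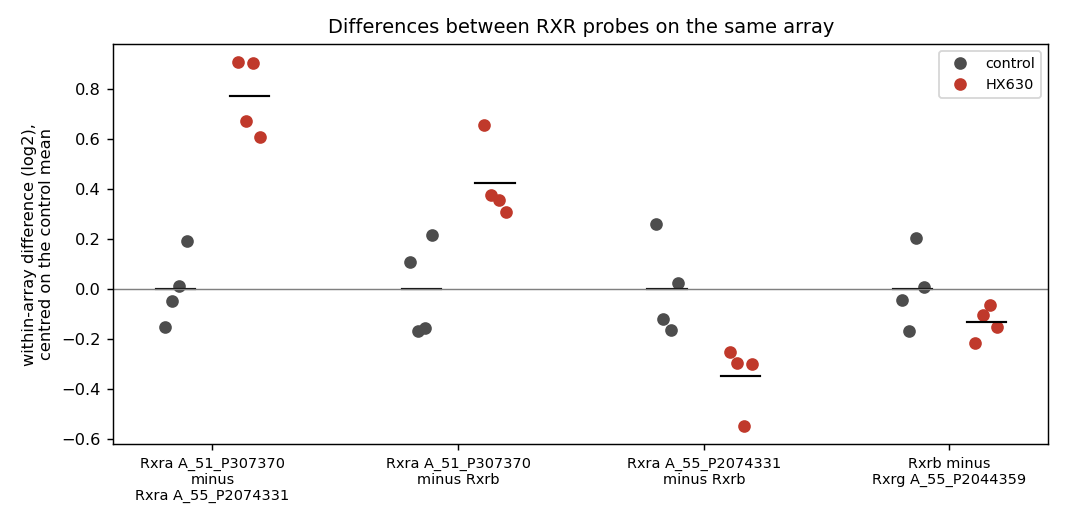
Within-array differences between RXR probes (log2), centred on the control mean, in the 4 control (grey) and the 4 HX630 (red) samples, with a line at each group's mean. The first pair, of the 2 Rxra probes, moved by 0.77, and Rxra against Rxrb moved by 0.42 with one Rxra probe and by -0.35 with the other.

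The genes whose signals followed those of the receptors most closely were found by Pearson correlation over the 8 arrays, which share 2 slides, as a description. For Rxrb these were Kcnd3 (r = 0.999), Oxsm, Trib2, Mtus2 and Kctd6 (each 0.998). All 5 were lower with HX630, with log2 fold changes from -1.90 to -0.30, and 3538 of 15319 genes correlated with Rxrb above 0.9. For Rxrg (A_55_P2044359) they included BC051019 (0.991), Zfp956 (0.984), Safb (0.975) and Cep170b (0.969), with 189 genes above 0.9. For Rxra (A_51_P307370) they were Gp5 (0.953), Mpped1 (0.916), 1700009N14Rik (0.907), Yes1 (0.896) and Mastl (0.895), with 3 genes above 0.9. None of the genes named for Rxrg and Rxra was called.

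The neighbours of each receptor gene were taken from the RefSeq table, the 2 nearest on each side, where they had a tested probe. Rxrb lies among Slc39a7, which encodes a zinc transporter, H2-Ke6 and Col11a2, which encodes a collagen chain. All 3 were lower with HX630 by the adjusted p in limma, as was Rxrb and as were 25.3% of all probes tested. The log2 fold changes were -0.52 for Slc39a7 (SE 0.074, adjusted p = 0.000515), -0.34 for H2-Ke6 (SE 0.047, adjusted p = 0.00049) and -0.67 for Col11a2 (SE 0.061, adjusted p = 4.47e-05), of which that of Col11a2 was called. With spike-in controls they were -0.30, -0.12 (adjusted p = 0.205 in limma) and -0.45, and none was called. Near Rxra, the collagen gene Col5a1 had a value of -0.03 (adjusted p = 0.842 in limma). Near Rxrg, Lrrc52 was called lower (-3.95, SE 0.451, adjusted p = 0.000159 in limma), while Lmx1a (-0.27, adjusted p = 0.0875) did not pass.

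The genes that work with the receptors were examined in 9 lists, each gene by its brightest tested probe. Of 102 genes, 87 were tested, and of these 7 were called higher and 13 lower. Of all 15320 genes tested, 8.39% were called higher and 11.1% lower. With spike-in controls the split in the lists was 16 higher and 10 lower. The genes higher there include Cyp26a1, whose probe was not well above background in any control sample. The median log2 fold change over the 87 genes was -0.11 and that over all genes tested was -0.034.

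Permissive partners of RXR were lower with HX630 wherever they were called. Of 10 genes, 9 were tested, 4 were called lower and none higher, and the median of the 9 was -0.61, or -0.39 with spike-in controls. In both scalings that is the value of Nr1i2, which was not called (adjusted p = 0.119 in limma with the 75th percentile). Its probe was well above background in only 3 control samples and 1 HX630 sample. With 1 array left out, the median ran from -0.78 to -0.41. Nr4a1, which encodes the orphan receptor NUR77, had a signal of 3.82 ± 0.065 in control and of 0.49 ± 0.276 with HX630 (SD, n = 4), a log2 fold change of -3.33 (SE 0.129, adjusted p = 5.67e-07 in limma). Nr4a2, which encodes its relative NURR1, fell by 1.89 on the log2 scale (SE 0.059), and its second probe fell by 2.11. Nr1h3, which encodes the oxysterol receptor LXRα, fell by 1.26 (SE 0.053) and by 1.34 in its second probe. Ppard, which encodes the fatty acid sensor PPARδ, fell by 0.78 (SE 0.033, adjusted p = 8.58e-07 in limma), and by 0.56 with spike-in controls, under the fold change threshold. The relatives of these receptors had smaller values that were not called, -0.31 for Nr1h2 (LXRβ, adjusted p = 0.000319 in limma) and -0.32 for Pparg (PPARγ, adjusted p = 0.0315). All 9 values were below 0 with the 75th percentile, and that of Nr1h4 turned to 0.10 with spike-in controls.

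Among the non-permissive partners, of 6 genes, 4 were tested and only Rarb, which encodes RARβ, was called, at -0.89 (SE 0.222, adjusted p = 0.00935 in limma), and was well above background in 3 of the 4 HX630 samples. Its call was lost when any 1 array other than HX630 sample 2 was left out (adjusted p = 0.0114 to 0.0246 in limma) and with the median (0.0111) or spike-in controls (0.0217). The other values were -0.22 for Rara (RARα, adjusted p = 0.00569), -0.39 for Rarg and -0.36 for Thra, and the median of the 4 was -0.38, or -0.16 with spike-in controls. The difference between the permissive and non-permissive partners was not tested. Vdr and Thrb did not pass the filter on background.

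Genes known to respond to RAR-RXR dimers had 4 of 11 tested genes called lower and none higher, with a median of -0.28, or -0.06 with spike-in controls, where Cyp26a1 was called higher. Rarb, with its unsteady call, is among the 4. The Cyp26a1 probe was not well above background in any control sample. Its value was 0.48 with the 75th percentile, not called (adjusted p = 0.0729 in limma), and -0.23 with normexp. The largest falls were those of Dhrs3 (log2 -1.86, SE 0.046), which encodes an enzyme that turns retinal back to retinol, Cyp26b1 (-1.49, SE 0.119), which encodes an enzyme that breaks down retinoic acid, and Tgm2 (-1.17, SE 0.043), which encodes tissue transglutaminase. The adjusted p in limma was 1.23e-07 for Dhrs3, 2.2e-05 for Cyp26b1 and 4.84e-07 for Tgm2. Dhrs3 and Cyp26b1 were also the only called genes among the 15 tested for retinoid transport and metabolism, where the median was -0.14. With spike-in controls that median was 0.08 and 5 genes of the list were called higher, Bco1, Fabp5, Rdh11, Rdh5 and Cyp26a1, the last at background in control.

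Genes known to respond to LXR-RXR and PPAR-RXR dimers held 6 of the 7 rises with the 75th percentile, 6 of 11 with the median and 6 of 16 with spike-in controls. For LXR, 3 of 7 tested genes were called higher and none lower, with a median of 0.19, or 0.41 with spike-in controls. Lpcat3, which encodes an enzyme of phospholipid remodelling, rose by 1.33 (SE 0.052), Scd1, which encodes a fatty acid desaturase, by 1.06 (SE 0.067), and Mylip, which encodes a ligase that degrades the LDL receptor, by 0.61 (SE 0.049). The second Mylip probe had 0.32 (adjusted p = 0.0977 in limma) and was not called, and its value with normexp was -0.30. The cholesterol transporter genes Abca1, Abcg5 and Abcg8 did not pass the filter on background, and Abcg1 had a value of 0.10 (adjusted p = 0.0482 in limma). The 2 LXR genes below 0 were Apoe and Smpdl3a. Apoe fell by 0.58, or 1.495-fold, just under the fold change threshold (adjusted p = 5.88e-05 in limma). Smpdl3a had -0.46 (adjusted p = 0.000181 in limma) and was not called either. For PPAR, 3 of 9 tested genes were called higher and none lower, with a median of -0.015 that was 0.21 with spike-in controls. Cpt1a, which encodes the enzyme that commits fatty acids to entry into mitochondria, rose by 1.60 (SE 0.044) and by 0.87 in its second probe. Ucp3, which encodes an uncoupling protein, rose by 1.10 (SE 0.148), and Slc25a20, which encodes the mitochondrial carnitine carrier, by 0.86 (SE 0.048). The second Ucp3 probe was not well above background on any array. Angptl4 (-0.19, adjusted p = 0.135 in limma) and Plin2 (-0.40), which are also known to respond to PPAR, were not called. Among 6 genes of vitamin D and thyroid hormone receptor dimers, Dio1, which encodes a deiodinase, was the only one called (-1.66, SE 0.121), and the median was -0.086, or 0.13 with spike-in controls. Further probes of Dio1 had -1.29, which was called, and -0.69, which was not (adjusted p = 0.0711 in limma).

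Coregulators, which link receptors on DNA to transcription, were called lower in 4 of 19 genes and higher in none, with a median of -0.095. These counts use the brightest probe. By its dimmer probe Ncor1 was called higher (0.76, adjusted p = 1.93e-06 in limma), while its brightest, at 0.30, was not. With spike-in controls the median was 0.13, 3 were called lower and 1, Kat2b, higher. Ppargc1a, which encodes the coactivator PGC-1α, had a signal of 0.79 ± 0.116 in control and of -4.15 ± 0.445 with HX630 (SD, n = 4), and fell by 4.94 on the log2 scale (SE 0.206, adjusted p = 7.78e-07 in limma). Its second probe was not well above background in any HX630 sample and was at least 20.9-fold lower there, a bound set against the lowest signal well above background on each array. Ppargc1b, which encodes its relative PGC-1β, fell by 2.02 (SE 0.153). Tbl1x, which encodes a subunit of corepressor complexes, was also called (-0.93, SE 0.040). Of the 14 genes that modify RXR or control its turnover, Mapk3, which encodes the kinase ERK1, was the only one called with the 75th percentile (log2 0.82, SE 0.041), and the median was 0.17. With spike-in controls Senp6, Mapk9 and Gsk3b were called higher as well, and the median was 0.40. With the 75th percentile a dimmer probe of Gsk3b was called higher (0.75, adjusted p = 1.94e-06 in limma), while its brightest, at 0.41, was not.

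**Figure D4:**
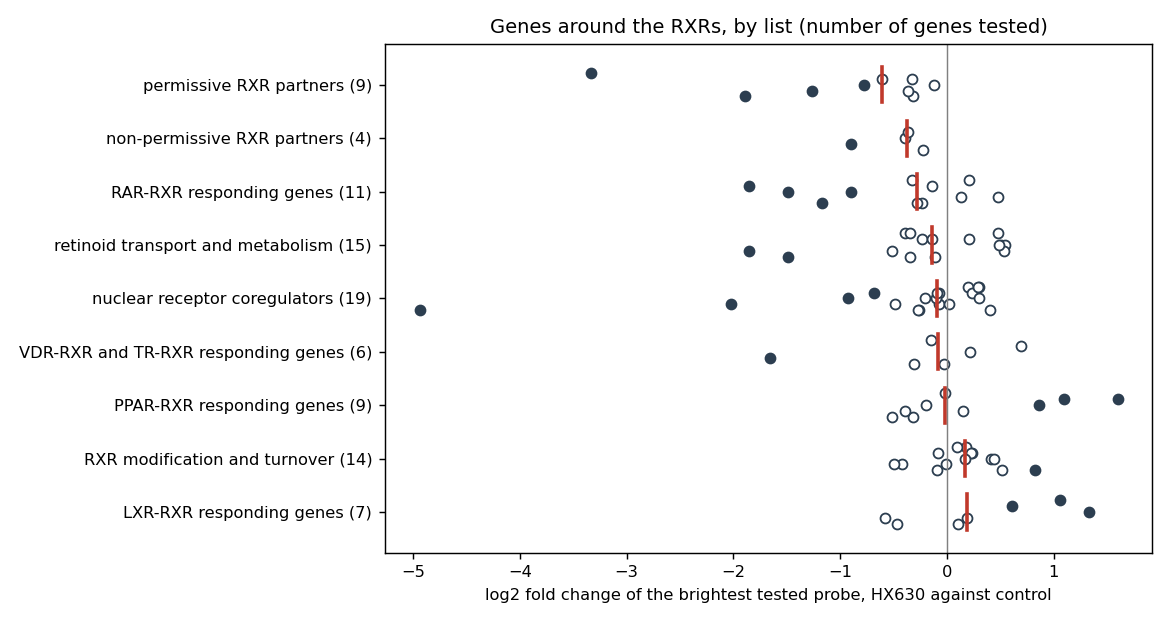
Log2 fold change (HX630 against control) of the brightest tested probe of each gene, by list, with called genes as filled points, genes not called as open points and the median of each list as a red line. Medians run from -0.61 for the permissive partners to 0.19 for the LXR-RXR genes, and the lowest point, at -4.94, is Ppargc1a.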

How the data were processed

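Per the labels and file headers, arrays were scanned in the Cy3 channel and read with Feature Extraction 10.7.3.1. The deposited processed intensity of a spot is background-subtracted and spatially detrended. A deposited log2 table of these arrays equals the log2 processed intensity minus the 75th percentile of the array within 0.00144. From the intensities, that scaling was recomputed in R 4.3.3 over 39429 probe means, without control spots and outlier spots. A probe was tested with limma 3.58.1 (lmFit and eBayes, 8 arrays, no block) when it stood well above background in 4 or more samples. p-values were adjusted over the 28553 probes tested, and single values and within-array differences were compared with two-sided exact permutation tests. The code was tested on simulated data. Probes were named by RefSeq accession through the GRCm38.p6 table. The array's design uses an older build, so that coordinates are given for promoter windows only. The members and lists were chosen with earlier results of these data known. Single genes were named by rule, as all RXR probes, up to 3 called genes with the largest rise and 3 with the largest fall in each list, the partner receptors that the study names, the 5 genes with the highest correlation with each receptor, and its 2 nearest neighbours on each side. Of the genes this rule names, 3 are not reported here. Other genes named (Rarg, Thra, Vdr, Thrb, Nr1h4, Nr1i2, Abca1, Abcg1, Abcg5, Abcg8, Apoe, Smpdl3a, Angptl4, Plin2, Cyp26a1, Bco1, Fabp5, Rdh5, Rdh11, Kat2b, Ncor1, Senp6, Mapk9 and Gsk3b) were added after their values were seen. The number of arrays limits the precision. Alternatives covered the scaling, normexp background correction (offset 16), filters, variance models, the methods' t-test, the replicate block and each array left out.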

Additional observations from a re-analysis of the deposited data

Results flagged for a closer look

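In control sample 1 the Rxrg probe A_51_P513311 stood apart from the other 3 control samples. Its signal was -8.18 (log2, relative to the 75th percentile) and those of the others were -6.26 to -6.08, so that the gap took up 0.913 of the range of the group, above Dixon's critical value for 4 samples. The spot was not well above background there, with a processed intensity of 4.59. It was 1 of 10 groups of 4 samples examined, and chance sets apart about 1 in 20 groups.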

How the results depend on the processing

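The RXR probes kept their direction and their side of the thresholds under the alternatives run, except as follows, and the cause was not tested. With spike-in controls, the value of Rxra A_55_P2074331 was -0.46 that of Rxrg A_55_P2044359 was 0.03, and that of Rxrb was -0.11 and no longer passed the adjusted p (0.0841 in limma). With normexp, Rxra A_51_P307370 was -0.063 and Rxrg A_51_P513311 was -0.33, and with array weights the latter was -0.064. Leaving out 1 array gave -0.27 (without control replicate 1) to 0.43 for Rxrg A_51_P513311. The other RXR probes ranged from 0.01 to 0.16 and from -0.72 to -0.59 for the Rxra probes, from -0.33 to -0.32 for Rxrb and from -0.25 to -0.14 for Rxrg A_55_P2044359. Averaged over both probes, an alternative added after the data were seen, Rxra had -0.29 (adjusted p = 0.0346 in limma) and Rxrg 0.022. Without the fold change threshold, Rxrb was called (-0.33), as were 5763 probes higher and 7236 lower. Probes called higher and lower were 4179 and 1888 with spike-in controls, and probes called higher were 1355 with normexp. Genes of the lists called higher were 11 with the median and 16 with spike-in controls.

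The unequal change of Rxra and Rxrb was 0.30 with normexp (exact permutation p = 0.2), -0.35 with A_55_P2074331, and 0.35 to 0.49 with 1 array left out, where leaving out any 1 HX630 array gave an exact permutation p of 0.0571. That of Rxra and Rxrg was 0.15 with normexp (exact permutation p = 0.457), -0.49 with A_55_P2074331, -0.14 with A_51_P513311, and 0.18 to 0.36 with 1 array left out (exact permutation p = 0.0286 without control replicate 4). That of Rxrb and Rxrg was -0.56 with A_51_P513311 (exact permutation p = 0.371), and -0.19 to -0.066 with 1 array left out (exact permutation p = 0.0286 without control replicate 2). That of the 2 Rxra probes, 0.77, was 0.66 with normexp and 0.72 to 0.84 with 1 array left out.

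Replicate numbers follow the position on the slide, and the labels tie them to no shared culture. Deviations of same-numbered samples correlated at 0.52, -0.012, 0.239 and 0.382, so the numbers were not taken as pairs. With the replicate block, no RXR probe changed its call, 2213 probes were higher and 3343 lower, and the unequal change of Rxra and Rxrb, 0.42, had an exact permutation p of 0.125, the smallest that 4 pairs allow.

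The call for Rxra rests on 1 of its 2 dim probes, and the sizes of all RXR changes depend on the scaling. Signals of the dim Rxrg probe were at the limit of detection.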
